A study of Homo sapiens with 10 samples.

Results

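The insulin and IGF signalling genes described here are IGF1R, INSR, IRS1, IRS2, IGFBP3, IGFBP4, IGFBP6, IGFBP7, IGFL1 and IGFL3. They were taken by symbol from the platform annotation, which held 1 probe set for each of the 10, among 14884 named genes. Expression was measured on Affymetrix arrays in MCF10A, a human breast epithelial line that is immortal but forms no tumours, with 5 arrays of parental cells (H2A.X WT) and 5 of H2A.X-KO cells, in which the gene of the histone variant H2A.X was knocked out. Both groups grew in the same medium, with 5% horse serum, 20 ng/ml EGF, 500 ng/ml hydrocortisone, 100 ng/ml cholera toxin and 10 ug/ml insulin, for 48 h before harvest, so all values below are those of cells with insulin present. The labels do not say whether the knockout cells were a single clone, nor whether the 5 samples of a group were separate cultures, so p-values reflect the scatter of these samples alone, and that scatter may be technical.

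Insulin and the insulin-like growth factors bind the receptor tyrosine kinases encoded by INSR and IGF1R, which phosphorylate the docking proteins IRS1 and IRS2. These recruit PI3-kinase, AKT is activated, the TORC1 kinase complex is switched on and the FOXO transcription factors are kept out of the nucleus. Secreted IGF binding proteins hold IGFs away from the receptor or deliver them to it, and proteases that cut the binding proteins release the IGF. MCF10A cells depend on EGF and insulin for growth, and at high concentrations insulin also occupies the IGF1 receptor.

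The regulatory sequences of members that rose, fell or did not pass are shown first, to set relatives side by side. They are the 250 bases before the annotated start, from RefSeq (GRCh38.p14). Such sequences were examined for 9 of the 10 members (not IGFBP7). Those of IGFL3, IGFL1, IRS1, IRS2, IGFBP3 and IGFBP4 are printed, and those of IGF1R, INSR and IGFBP6 are not. IGFL3 and IGFL1 are paralogues of the IGF-like family that lie close together on chromosome 19, and of the pair the first rose and the second did not pass the test. IRS1 rose and IRS2 did not pass. IGFBP3 and IGFBP4 both fell. Capitals mark GGGCGG, the GC box, and TATAAA, the TATA box, each on either strand; neighbouring GC boxes can share letters.
IGFL3, chr19:46124689-46124938, minus strand: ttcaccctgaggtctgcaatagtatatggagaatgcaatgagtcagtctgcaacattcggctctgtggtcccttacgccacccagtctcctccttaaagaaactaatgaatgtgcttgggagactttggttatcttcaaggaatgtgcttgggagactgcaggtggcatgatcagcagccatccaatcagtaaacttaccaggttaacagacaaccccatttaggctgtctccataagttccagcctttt
IGFL1, chr19:46229492-46229741, plus strand: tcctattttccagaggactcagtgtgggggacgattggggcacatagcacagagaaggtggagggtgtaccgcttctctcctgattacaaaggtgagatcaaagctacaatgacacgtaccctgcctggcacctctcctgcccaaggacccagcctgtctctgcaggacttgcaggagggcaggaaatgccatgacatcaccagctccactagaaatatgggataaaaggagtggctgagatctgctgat
IRS1, chr2:226799821-226800070, minus strand: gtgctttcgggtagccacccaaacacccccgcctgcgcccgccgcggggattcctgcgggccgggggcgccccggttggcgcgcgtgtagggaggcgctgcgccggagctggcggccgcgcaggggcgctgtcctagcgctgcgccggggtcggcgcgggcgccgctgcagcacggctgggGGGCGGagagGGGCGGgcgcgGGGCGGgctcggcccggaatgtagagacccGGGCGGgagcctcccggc
IRS2, chr13:109786584-109786833, minus strand: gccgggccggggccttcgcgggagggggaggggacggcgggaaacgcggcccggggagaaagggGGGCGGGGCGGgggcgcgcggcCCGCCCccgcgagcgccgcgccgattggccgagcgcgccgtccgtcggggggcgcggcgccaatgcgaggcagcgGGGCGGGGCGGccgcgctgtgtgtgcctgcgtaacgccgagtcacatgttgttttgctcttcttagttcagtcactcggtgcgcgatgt
IGFBP3, chr7:45921273-45921522, minus strand: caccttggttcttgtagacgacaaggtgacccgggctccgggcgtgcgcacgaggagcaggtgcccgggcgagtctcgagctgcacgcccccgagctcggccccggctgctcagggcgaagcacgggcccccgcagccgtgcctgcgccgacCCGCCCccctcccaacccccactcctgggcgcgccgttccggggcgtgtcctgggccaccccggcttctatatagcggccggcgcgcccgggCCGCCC
IGFBP4, chr17:40443200-40443449, plus strand: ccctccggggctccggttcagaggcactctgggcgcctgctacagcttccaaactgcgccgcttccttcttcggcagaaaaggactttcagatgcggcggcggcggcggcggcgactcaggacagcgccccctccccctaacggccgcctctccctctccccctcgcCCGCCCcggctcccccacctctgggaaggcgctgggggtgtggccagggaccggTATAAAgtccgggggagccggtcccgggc

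IGFL3 and IGFL1 had GC contents of 46.4% and 52.8% with 2 and 3 CpG dinucleotides, against medians of 58% and 11 over 35116 promoters. IRS1 and IRS2 had 80.8% and 76.4% with 39 and 42 CpGs. The GC box was found in all of the 9 promoters except those of IGFL1 and IGFL3, and in 42.6% of all promoters. TATAAA occurred in IGFBP4, where it began 29 bases before the start, and in 10.7% of all promoters. The core of the FOXO site, GTAAACA on either strand, was found in IGFBP6 and in 2.98% of all promoters. The IGFL1 and IGFL3 promoters were identical at 139 of 205 aligned bases (67.8%, gaps not counted). Alignments of IGFL3 with the promoters of the members outside that family gave 50.7% to 60.2%. Those promoters were richer in GC (61.2% to 81.2%), and how far base composition alone sets these values was not tested.

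In knockout cells IGFL3, IRS1 and IGF1R were higher and IGFBP7, IGFBP3 and IGFBP4 were lower. INSR, IRS2, IGFBP6 and IGFL1 did not pass the test. A gene passed at an adjusted p under 0.05 in limma, with Benjamini-Hochberg adjustment over all 14884 genes. By that rule 34.3% of all genes passed, 15.3% higher and 19% lower, against 3 and 3 of the 10 members. Dim genes, with both group means under the median of all gene means, were also left out, which removed IGFL1. Then 3 and 3 members passed, beside 2139 higher and 2689 lower of the genes kept (IGFL3 and 7725 others). The share of all genes that passed was thus larger among genes as bright as most members. The median difference was 0.02 over the 10 members and 0.00 over all genes. In 4 of the members, IGFL3, IRS1, IGFBP3 and IGFBP7, the groups of arrays did not overlap, as in 28.2% of all genes. All differences are knockout minus parental on the log2 scale of signal, with a standard error (SE).

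**Figure D1:**
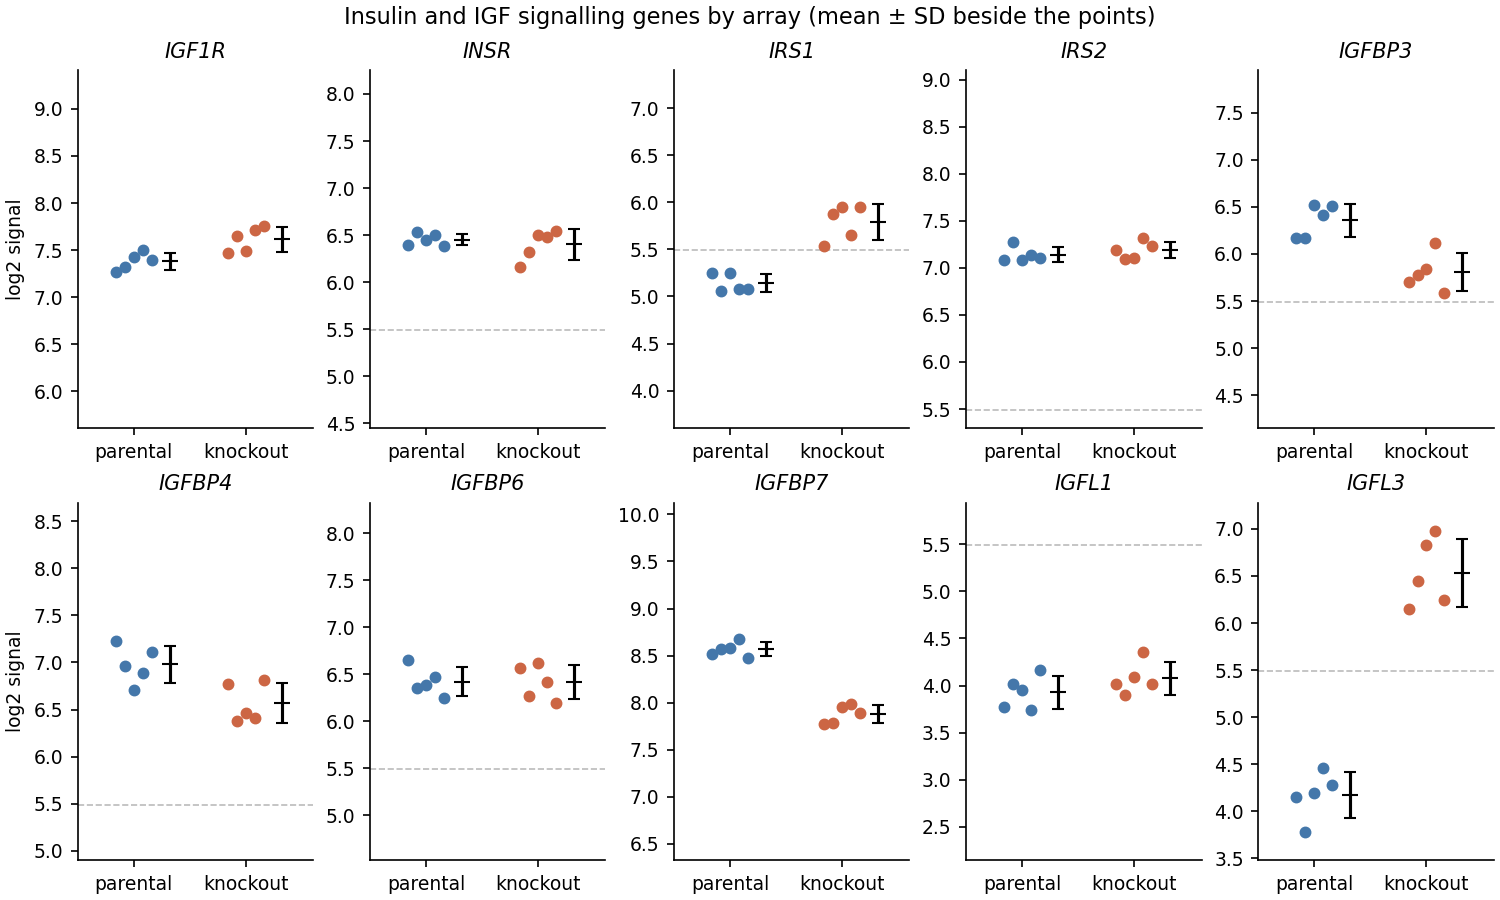
Log2 signal of each of the 10 genes on every array, parental in blue and knockout in orange, with the group mean ± SD (n = 5) beside the points. Every panel spans the same height in log2 units, and a dashed line marks the median of all gene means (5.49) where it falls in the panel. IGFL3, IRS1, IGFBP3 and IGFBP7 show no overlap between groups, while IGF1R and IGFBP4 overlap.

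Of the receptors, IGF1R, which encodes the type 1 IGF receptor, read 7.26, 7.32, 7.43, 7.50 and 7.39 on the parental arrays (replicates 1 to 5) and 7.47, 7.65, 7.49, 7.71 and 7.76 on the knockout arrays. Knockout replicates 1 and 3 lay under the highest parental array, so the groups overlapped. The difference was 0.23 ± 0.07 (SE; limma, adjusted p = 0.0236), 1.18-fold in signal, and in absolute size it stood at the 67.4th percentile of all genes. This call was lost when any of 5 arrays was left out: parental replicate 1 (0.21, adjusted p = 0.0612) or 2 (0.22, adjusted p = 0.0576), or knockout replicate 2 (0.23, adjusted p = 0.0508), 4 (0.21, adjusted p = 0.0583) or 5 (0.20, adjusted p = 0.0591).

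INSR, which encodes the insulin receptor, read 6.40, 6.53, 6.45, 6.50 and 6.39 in parental cells and 6.16, 6.32, 6.50, 6.49 and 6.55 in knockout cells. The knockout arrays spread on both sides of the parental range. The difference was -0.05 (95% interval -0.22 to 0.11; limma, adjusted p = 0.673). Knockout replicate 1, the lowest INSR value, also stood apart from the other knockout arrays on the second principal component of all genes (20.2 against -9.47 to -2.52), and without it the difference was 0.01.

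Among the docking proteins, IRS1 read 5.25, 5.05, 5.25, 5.08 and 5.08 in parental cells and 5.54, 5.87, 5.95, 5.65 and 5.95 in knockout cells. Each knockout array was above each parental array. The rise was 0.65 ± 0.09 (SE; 95% interval 0.46 to 0.84; limma, adjusted p = 6.6e-05), 1.57-fold in signal. The parental mean of 5.14 was below the median over all gene means (5.49) and the knockout mean of 5.79 above it.

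IRS2, the other widely expressed docking protein, read 7.08, 7.28, 7.09, 7.14 and 7.11 in parental cells and 7.19, 7.10, 7.11, 7.31 and 7.23 in knockout cells. The values intermingled, with the second highest of all on parental replicate 2. The difference was 0.05 (95% interval -0.09 to 0.18; limma, adjusted p = 0.614).

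Of the 4 binding protein genes among the members 3 fell, beside 19% of all genes. IGFBP1 (0.11) and IGFBP5 (0.11), outside the members and under the median of all gene means, did not pass. IGFBP7, a secreted relative with low affinity for IGFs that is also known to bind insulin, read 8.52, 8.57, 8.58, 8.68 and 8.48 in parental cells and 7.77, 7.78, 7.95, 7.99 and 7.89 in knockout cells. All knockout arrays lay below all parental arrays by a clear gap. The difference was -0.69 ± 0.06 (SE; limma, adjusted p = 1.89e-06), 1.61-fold lower in signal.

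IGFBP3, the main carrier of IGFs in serum and a secreted product of epithelial cells, read 6.17, 6.17, 6.52, 6.42 and 6.51 in parental cells and 5.70, 5.78, 5.85, 6.12 and 5.58 in knockout cells. The groups did not overlap, but knockout replicate 4 came close to the lowest parental arrays. The difference was -0.55 ± 0.11 (SE; limma, adjusted p = 0.00105), 1.47-fold lower in signal.

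IGFBP4, a binding protein known mainly as an inhibitor of IGF action, read 7.22, 6.96, 6.71, 6.89 and 7.11 in parental cells and 6.78, 6.38, 6.46, 6.41 and 6.82 in knockout cells. Parental replicate 3 lay under knockout replicates 1 and 5, so the groups overlapped. The difference was -0.41 ± 0.11 (SE; limma, adjusted p = 0.0125), 1.33-fold lower in signal.

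IGFBP6, a binding protein that prefers IGF2, read 6.65, 6.36, 6.38, 6.47 and 6.25 in parental cells and 6.57, 6.27, 6.62, 6.42 and 6.20 in knockout cells. The groups covered nearly the same range. The difference was -0.01 (95% interval -0.21 to 0.20; limma, adjusted p = 0.970), and its sign turned under several of the settings tried.

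The IGF-like genes encode small secreted proteins with a cysteine pattern related to that of the IGFs. IGFL3 read 4.15, 3.78, 4.19, 4.46 and 4.28 in parental cells and 6.15, 6.45, 6.83, 6.98 and 6.24 in knockout cells. The lowest knockout array, at 6.15, was far above the highest parental array, at 4.46. The rise was 2.36 ± 0.16 (SE; limma, adjusted p = 1.72e-07), 5.13-fold in signal, at the 99.8th percentile of absolute differences. The parental mean of 4.17 was below the median of all gene means and the knockout mean above it.

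IGFL1 read 3.77, 4.01, 3.95, 3.73 and 4.16 in parental cells and 4.02, 3.90, 4.09, 4.35 and 4.02 in knockout cells. All 10 values were under the median of all gene means, and the groups overlapped. The difference was 0.15 (95% interval -0.07 to 0.36; limma, adjusted p = 0.295). IGFL2 and IGFL4, the other family members, had differences of 0.21 and 0.11, and IGFLR1, which encodes a receptor of the family, had 0.08; none of these passed. The paralogues are similar in sequence, and how far their probe sets cross-hybridise was not tested.

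**Figure D2:**
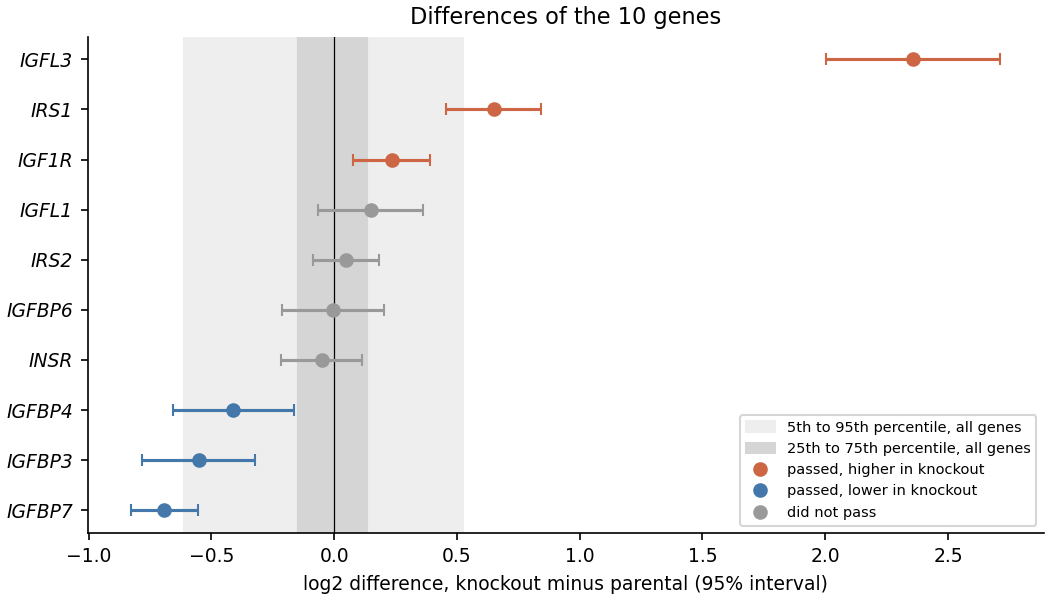
Log2 difference, knockout minus parental, of the 10 genes with 95% intervals from limma (5 against 5 arrays). Grey bands give the 5th to 95th percentile (-0.61 to 0.53) and the 25th to 75th percentile (-0.15 to 0.14) of all 14884 genes. IGFL3 and IRS1 lie above the outer band and IGFBP7 below it, while IGF1R, IGFBP3 and IGFBP4 lie inside it although they passed.

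The surroundings of the members differed. Among the 10 named genes on each side of IGFL3 in RefSeq gene order, 1 rose and 1 fell, with a median difference of 0.05. The riser was LOC93429 (0.45), which lies between IGFL3 and IGFL1. None of these 20 neighbours had a difference as high as that of IGFL3. IGFBP4 lies on chromosome 17. Of its 20 neighbours 8 rose, beside 15.3% of all genes, 0 fell by the same limma test (0 fell at an unadjusted p under 0.05) and 12 did not pass, with a median of 0.11. Those that rose included TOP2A (0.91) and TNS4 (1.01), the genes next to it on either side. Around the other 8 members the neighbour medians ran from -0.07 to 0.06. IGFBP7 had no neighbour with a larger fall, and IGFBP3 had 1.

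**Figure D3:**
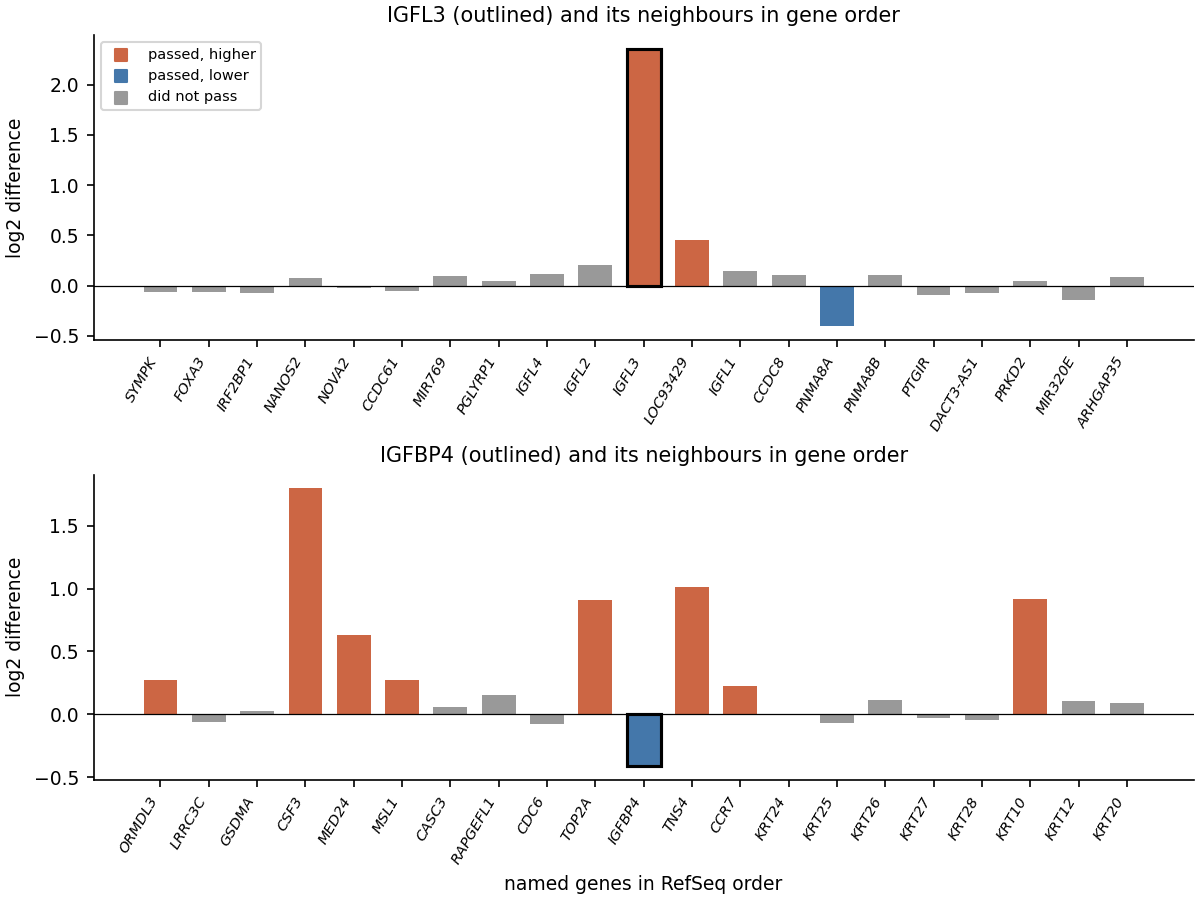
Log2 difference, knockout minus parental, of IGFL3 (top) and IGFBP4 (bottom), both outlined, and of the 10 named genes on each side in gene order, with no scale of distance. Orange bars passed the test upward, blue bars passed downward and grey bars did not pass. IGFL3 stands alone at 2.36, and IGFBP4 at -0.41 is the only bar of its panel that passed downward.

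Apart from the difference between groups, the members varied together to different degrees. Pearson correlations of their deviations from the group means were taken over 10 arrays that share the same medium and normalisation. They ran from -0.69 for IGF1R with IGFBP6 to 0.79 for IGFBP3 with IGFL3. INSR and IGFBP7 had 0.77, and IGFBP3 and IGFBP4 had -0.64. These are descriptions over few arrays and carry no test.

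The other genes of the pathway were taken from a list of 143 symbols, of which 94 were measured. Of these, 24 rose, 25 fell and 45 did not pass by limma, so 52.1% passed, beside 34.3% of all genes. With dim genes left out, 24 rose and 26 fell. Of all the genes then kept (IGFL3 and 7725 others), 2139 rose and 2689 fell, a larger share than 34.3%. The 34.3% set beside this list and its roles below is therefore not matched for brightness. The list was also chosen with earlier results of these data known, so its shares are descriptions and no test of the pathway. The median difference of the 94 was 0.01. Knockout arrays lay entirely above the parental arrays in 24 of them and entirely below in 26, beside 12.2% and 16% of all genes (28.2% in either direction).

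Of 12 further genes for binding proteins or for proteins that act on them, 2 rose and 2 fell. That is 33.3% passing, near the 34.3% of all genes. PAPPA2, which encodes a protease that cuts IGFBP3 and IGFBP5, fell from 5.82 ± 0.11 to 4.33 ± 0.17 (SD, n = 5 each), a difference of -1.49 (limma, adjusted p = 2.89e-08). STC2, which encodes the secreted stanniocalcin that inhibits the related protease PAPP-A, fell from 9.95 ± 0.05 to 7.88 ± 0.07 (n = 5 each). HTRA1, a secreted serine protease able to degrade IGF binding proteins, rose from 10.29 ± 0.01 to 10.71 ± 0.03 (n = 5 each). LRP1, an endocytic receptor, rose by 0.33. The other 8 measured genes of this group did not pass, among them IGFBP1 (0.11) and IGFBP5 (0.11), both under the median of all gene means.

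Of the ligands and further receptors, IGF1 was at 3.36 and 3.44 in parental and knockout cells, under the median of all gene means, and did not pass. INSL4, of the relaxin branch, rose by 0.39 but was as dim. IGF2R, which encodes the receptor that takes IGF2 to lysosomes, fell from 9.75 ± 0.07 to 9.32 ± 0.11 (SD, n = 5 each; limma, adjusted p = 0.000164). INSRR, the insulin receptor related receptor, did not pass (0.08). INS and IGF2 were not analysed here.

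Among 13 further adaptors 1 rose and 4 fell, so 38.5% passed, near the 34.3% of all genes. SHC1, which couples receptors to RAS, rose by 0.33. SOS2, a RAS exchange factor, fell by 0.76, while its relative SOS1 was at -0.07 and did not pass. GAB2 (-0.36), CRKL (-0.31) and DOK4 (-0.23) also fell, GAB2 from a dim parental mean of 3.82 to 3.46. DOK4 lost its call under quantile normalisation (adjusted p = 0.0692) and without parental replicate 1, 4 or 5 or knockout replicate 2, 4 or 5 (adjusted p of 0.0873, 0.0588, 0.0522, 0.0685, 0.0513 and 0.0503).

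Genes that restrain the receptors moved in both directions, with 2 rises and 5 falls of 10 (70% passed, beside 34.3% of all genes, dim ones included). The related adaptors GRB10 and GRB14 both bind and inhibit the insulin receptor. GRB10 fell from 5.91 ± 0.09 to 5.10 ± 0.10 (SD, n = 5 each) and GRB14 rose from 5.98 ± 0.09 to 6.82 ± 0.22 (n = 5 each). ENPP1, a membrane protein that inhibits the insulin receptor, rose by 1.13, from a parental mean of 4.70 under the median of all gene means. The cytokine and growth factor signalling suppressors SOCS2 and SOCS6 fell by 0.43 and by 0.38.

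At the level of PI3-kinase and AKT, 3 of 12 genes rose and 6 fell (75% passed, beside 34.3% of all genes, dim ones included). TRIB3, a pseudokinase reported to bind AKT, fell by 2.35 (limma, adjusted p = 7.05e-11). PDPK1, the kinase that activates AKT, fell by 0.45 on the brighter of its 2 probe sets and by 0.29 on the other (limma over all probe sets, adjusted p = 2.35e-05 and 0.011). The pseudokinase gene TRIB1 fell by 0.49. The AKT phosphatase genes went opposite ways, PHLPP1 at 0.49 and PHLPP2 at -0.43, both past the test. AKT1 (-0.02) and AKT2 (0.14) did not pass, although AKT2 did so with knockout replicate 1 left out (0.16; adjusted p = 0.0487), after the arrays were quantile normalised (0.16; adjusted p = 0.0278) and with dim genes left out (adjusted p = 0.0332).

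Around TORC1, 6 of 18 genes rose and 5 fell (61.1% passed, beside 34.3% of all genes, dim ones included). Most of the 18 were not dim. With dim genes left out, 2139 rose and 2689 fell of all genes kept (IGFL3 and 7725 others), so 61.1% is not read as an excess. SESN3 and SESN1, sestrins that restrain TORC1, rose by 2.60 and 1.24, while SESN2 fell by 1.32. The parental mean of SESN3 was 4.72, under the median of all gene means. PDCD4, an inhibitor of translation that the pathway destroys, rose by 1.02. EIF4EBP1, which encodes a translational repressor that TORC1 inactivates, fell from 9.58 ± 0.05 to 7.99 ± 0.15 (SD, n = 5 each; limma, adjusted p = 3.77e-09).

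FOXO factors and their known targets had 9 rises and 2 falls of 16, with a median of 0.29. Thus 68.8% passed, beside 34.3% of all genes, dim ones included. FOXO1 rose from 7.74 ± 0.08 to 8.37 ± 0.15 (SD, n = 5 each; limma, adjusted p = 2.05e-05). CAT, which encodes catalase, rose by 1.32, FBXO32, a ubiquitin ligase gene known from muscle atrophy, by 1.26, and the transcriptional repressor gene BCL6 by 0.61. TXNIP, an inhibitor of glucose uptake, fell by 1.09. INSR and IRS2, which are FOXO targets in other tissues and were counted among the members, did not pass.

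**Figure D4:**
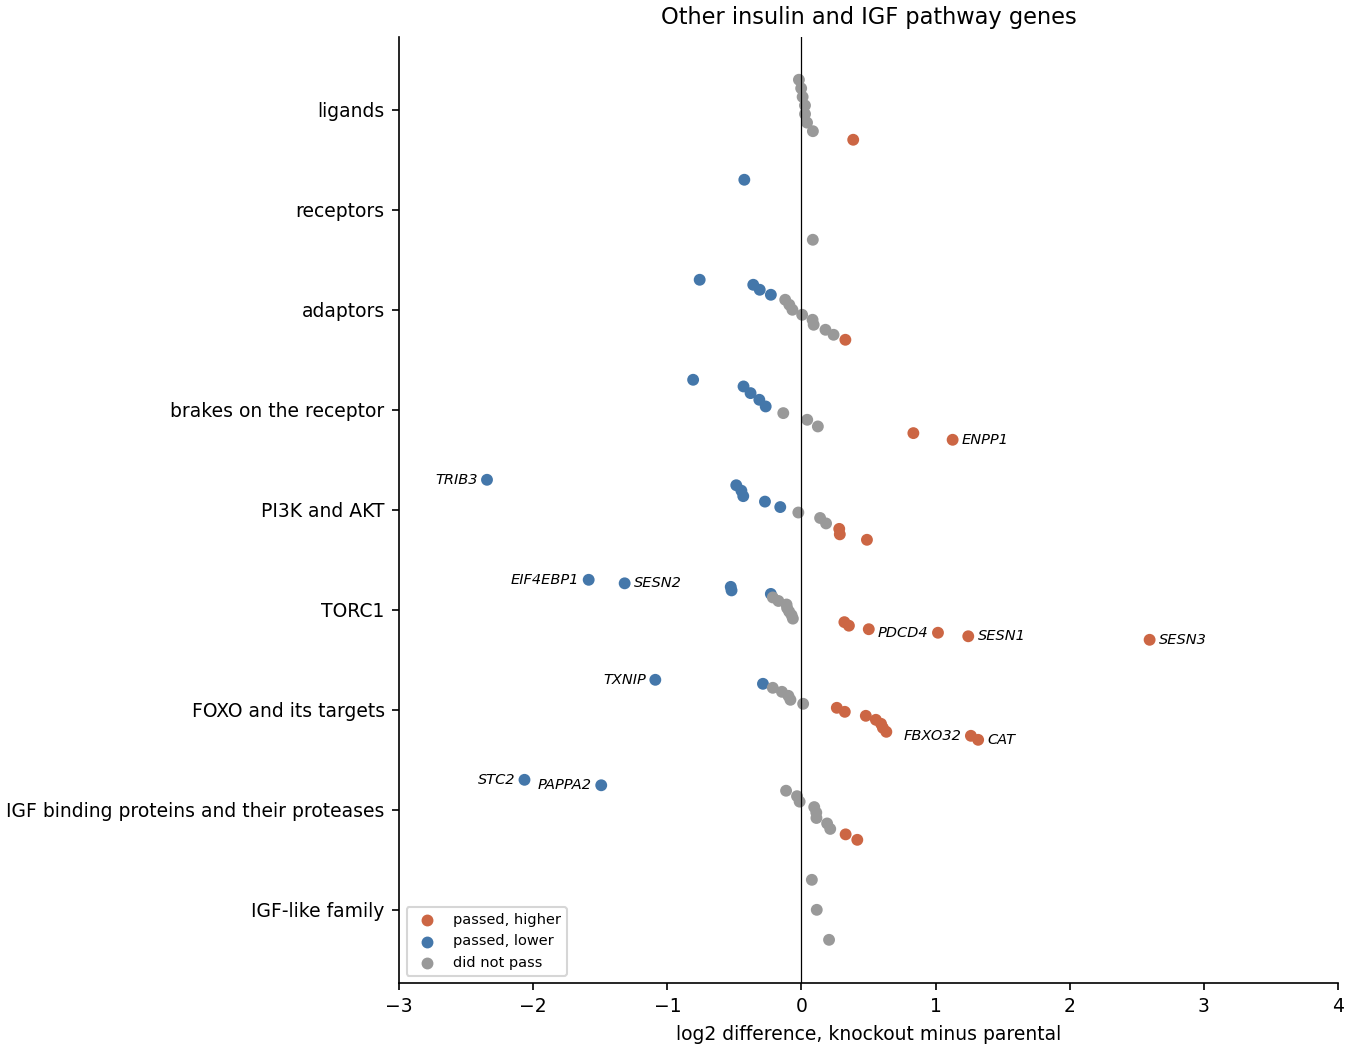
Log2 difference, knockout minus parental, of the 94 measured pathway genes outside the members, by role, with names for absolute differences of at least 1. Orange points passed the limma test upward, blue points passed downward and grey points did not pass, and the vertical offset within a role only spreads the points. The FOXO role holds 9 orange and 2 blue points, and the receptor and adaptor roles hold no difference of 1 or more.

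Of 8 listed basal epithelial markers of the labelled line, 3 were measured. KRT5, KRT14 and EGFR exceeded the median over all genes in both groups and rose by 0.78, 2.59 and 0.69. Of 7 measured luminal markers of 8 listed, 2 fell and 5 did not pass, and 6 were dimmer than that median in parental and knockout cells alike. ESR1 and PGR, the hormone receptors that MCF10A lacks, stood at 3.94 and 2.86 in parental cells and 4.04 and 2.87 in knockout cells. GATA3, a luminal transcription factor and the marker above that median, fell from 7.24 to 6.80 (limma, adjusted p = 0.00122). FOXA1 fell by 0.29 (limma, adjusted p = 0.0378), a call lost without parental replicate 2, 3 or 5 or knockout replicate 1, 2, 3 or 5 (adjusted p from 0.053 to 0.0971). Of the markers of other cell types, 3 fibroblast markers of 10 listed were measured. Their mean was 3.98 to 4.25 on parental and 4.73 to 4.89 on knockout arrays, with DCN rising by 2.06 and the other 2 not passing. That of 6 endothelial markers of 8 was 4.08 to 4.17 and 4.33 to 4.63, with KDR rising by 1.69 and the other 5 not passing. That of 5 adipocyte markers of 7 was 3.93 to 4.09 and 3.83 to 3.98, with PPARG falling by 0.61 and the other 4 not passing. That of 4 immune markers of 8 was 5.60 to 5.74 and 5.51 to 5.63, with CSF1R rising by 0.72 and CD14 and CD68 falling by 0.76 and by 0.37. Their part in the results was not tested. In RNA from whole cultures, fewer cells that express a gene and less RNA per cell cannot be told apart. H2AX was not analysed here, so the groups rest on the labels.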

How the data were processed

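Total RNA (1 ug) of 5 parental and 5 knockout samples was labelled and hybridised to 10 arrays. The authors deposited 1 log2 signal for each of 53617 probe sets per array, already summarised and normalised. The tools named in the submitters' processing notes are Affymetrix Expression Console and Partek 6.6; how they summarised, normalised or filtered is not given in the sources used here. Values between 1.13 and 13.87 and array medians between 4.26 and 4.35 showed the log2 scale; with medians that close, a shift common to all transcripts would be lost.

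Of the probe sets, 16098 had 1 gene symbol, 0 had several and 37519 had none here. Symbols were updated by Entrez identifier in RefSeq (GRCh38.p14; all 16098 matched), and the probe set with the highest mean stood for each of 14884 genes. Groups were compared with limma 3.58.1 (R 4.3.3), by lmFit and eBayes without covariate or filter, two-sided. The number of arrays limits the precision: the median SE of a difference was 0.079. On simulated data with 200 of 14884 genes changed, 71% of genes changed by 0.5 and 95% of those changed by 1 were recovered, with 8 false calls. The simulated noise was independent between genes, and a far larger share (34.3%) passed in the data, so these rates need not hold there. Promoters, motifs and figures used Python 3.11.15, Biopython 1.88 and matplotlib 3.10.9.

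The members and lists were chosen with earlier results of these data known, and the motifs after the values were seen. All 10 members are named. Of the wider list, up to 5 genes per role were taken that passed with no overlap between groups, by absolute difference; others named with them were chosen after their values were seen. Alternatives were quantile normalisation, median centring, a filter on dim genes, an intensity trend, other probe set rules, a replicate block, leaving out each array and, for the members, an exact permutation test.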

Additional observations from a re-analysis of the deposited data

Results flagged for a closer look

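In 20 groups of 5 values, the 10 members in both groups of arrays, 1 value stood far from the others: IRS2 on parental replicate 2, at 7.28 against 7.08 to 7.14 on the other parental arrays. The gap to the nearest array was 0.711 of the group's range, where the limit for 5 values is 0.71. Chance gives such a gap in about 1 of 20 groups.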

How the results depend on the processing

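Of the 10 members, 7 kept their direction and their side of the threshold in every setting in which they were tested: IRS1, IRS2, IGFBP3, IGFBP4, IGFBP7, IGFL1 (removed by the filter on dim genes) and IGFL3. IGF1R kept its direction and lost its call without any of 5 arrays, as given above. IGFBP6 turned sign under quantile normalisation (0.0374), and without parental replicate 1 (0.051) or 4 (0.0055) or knockout replicate 2 (0.0296) or 5 (0.0479); with 1 array left out it ran from -0.0566 to 0.051. INSR turned sign without knockout replicate 1 (0.0095) and ran from -0.0881 to 0.0095. The cause was not tested. With 1 array left out, 2 to 3 members were called higher and 3 lower, 24 to 26 and 23 to 26 genes of the wider list, and 2069 to 2366 and 2616 to 2762 of all genes. Of 31 genes taken by rule from the wider list, 30 kept their call in every setting in which they were tested, DOK4 being the exception. Of 34 genes named outside that rule 28 did so. AKT2 and FOXA1 changed call as given above, and ARIH2 lost its call with the mean of its probe sets (-0.1068, adjusted p = 0.161). AKT1 (-0.1095 to 0.0786 with 1 array left out) turned sign with the mean of its probe sets (0.0838) and without parental replicate 3 (0.0552) or knockout replicate 1 (0.0786), INSRR (-0.0065 to 0.162) without knockout replicate 1, and PGR (-0.0743 to 0.0759) under quantile normalisation (-0.0071) and without parental replicate 3 (-0.0501) or 4 (-0.0264) or knockout replicate 1 (-0.0743) or 4 (-1e-04); none of these 3 passed in any setting. In exact two-sided permutation tests of single members, p was 0.00794, the smallest 5 against 5 arrays can give, for IRS1, IGFBP3, IGFBP7 and IGFL3, and 0.0238 for IGF1R and IGFBP4, not adjusted for the number of genes.

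The labels do not say whether the replicate numbers pair the samples. Deviations of same-numbered arrays correlated at 0.199 for number 1 and at -0.014 to 0.049 for the others. Parental replicates 1 and 3 were most like the knockout arrays of the same number, and the other parental arrays were not. Such correlations cannot decide whether the samples were paired, so the block was run as an alternative. With the replicate block 3 members were called higher and 3 lower, and 2201 and 2771 of all genes; among 75 named genes it changed 1 call, that of FOXA1 (adjusted p = 0.0665), and among the 94 genes of the wider list 2. IGFL1 and parental IGFL3 and IRS1 were under the median of all gene means, and how far their signal lay above background was not tested.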

Other observations

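The genes most like the extreme members were looked for among 7725 other genes above the median of all gene means, by Pearson's r over the 10 arrays, as a description. For IGFL3 they were STARD9, DNPH1 and ANKEF1, each at 0.99, with differences of 0.57, 0.72 and 0.57. For IGFBP7 they were ATE1, ARIH2 and SMIM20, each at 0.99, with differences of -0.75, -0.42 and -0.61; ARIH2 has 2 further, dimmer probe sets, at 0.01 and 0.09, that did not pass. Much of this likeness is the difference between groups: with the group means removed, r was 0.82 to 0.83 for the first 3 and 0.85 to 0.92 for the others.

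A pair of relatives of the members was chosen after their values were seen. IGFBP7-AS1, the antisense gene at the IGFBP7 locus, was at 4.19 ± 0.08 in parental and 4.10 ± 0.05 in knockout cells (SD, n = 5 each) and did not pass (limma, adjusted p = 0.286), under the median of all gene means. IGF2BP2, which encodes an RNA-binding protein named for IGF2 mRNA, rose from 7.82 ± 0.07 to 8.27 ± 0.12 (n = 5 each; limma, adjusted p = 0.000151).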
